A study of Mus musculus with 16 samples.

Results

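The nuclear tRNA-Glu isodecoders are the cytosolic glutamate tRNAs, listed in the deposited count tables as tRNA-Glu-CTC-1 to tRNA-Glu-CTC-6 and tRNA-Glu-TTC-1 to tRNA-Glu-TTC-3. They were chosen by name alone. Each of the 2 tables held the same 9 entries, among 821 rows in the heart table and 819 rows in the mouse embryonic fibroblast (MEF) table. Nuclear tRNAs took 267 rows of the heart table and 265 of the MEF table. The 16 rows named tRX-Glu in each table and the mitochondrial tRNA-Glu were not members.

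Isodecoders share an anticodon and differ elsewhere in the tRNA body. The anticodon CTC reads the glutamate codon GAG, and TTC, read as UUC in the RNA, reads GAA and can also pair with GAG by wobble. The wobble uridine of the UUC form carries a thiolated modification in the cytosol, a feature it shares with the UUU form of tRNA-Lys and the UUG form of tRNA-Gln. Both cytosolic anticodons are charged with glutamate by the glutamyl-prolyl-tRNA synthetase. Mitochondria use a separate tRNA-Glu encoded in their own genome.

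The study sequenced tRNA from mice and cells in connection with base editing of a disease mutation in the mitochondrial tRNA-Ala gene. The 8 hearts came from separate mice of the m.5024T model. Of these, 4 mice had received AAV9-DdCBE, an adeno-associated virus with a cytosine base editor that acts on mitochondrial DNA, and were labelled 2X (mouse 26), 5X (mouse 25) and 10X (mice 17 and 18). The other 4 had received AAV9-GFP and were labelled 3X (mice 14 and 19) and 5X (mice 5 and 6). The MEF libraries came from 3 lines named Cl_1, Cl_2 and Cl_3 and from 1 line named Ctrl_1, each sampled at 2 cell passages. The titles do not say what Cl, Ctrl or the X labels stand for, and none was interpreted. The sources used here give neither the age of the mice nor the origin of the lines. Only 1 Ctrl line was measured, so a difference between Ctrl and Cl lines cannot be told apart from a difference between lines. RNA from all 16 libraries went through the same oxidation and beta-elimination chemistry.

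Libraries held 1540287 to 3037178 counts in the hearts and 1473330 to 4375975 in the MEFs. Mitochondrial tRNAs took 37.4% to 59.9% of the counts in the hearts and 2.14% to 3.74% in the MEFs, with the highest share in mouse 17, a 10X heart. Mouse 14, an AAV9-GFP heart, stood apart from the other 3 hearts of its group for most tRNA-Glu members. The calls in the 10X hearts against AAV9-GFP and the TTC to CTC ratio of the treatments are also given without it. Correlations between anticodon totals are given over all 8 hearts only. The tables count tRNAs only, so no protein-coding marker of the tissue or cell type could be checked.

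Of the 9 entries, 4 were rare. tRNA-Glu-CTC-3 and tRNA-Glu-CTC-6 had 0 counts in all 16 libraries, which allows at most 1.95 CPM (counts scaled to a library of 1e+06) in the shallowest heart library and 2.04 CPM in the shallowest MEF library, where 3 counts are taken as the limit and counting error alone is covered. tRNA-Glu-CTC-5 had 0 to 4 counts in the hearts, with a count in 3 of 8, and 2 to 10 counts in the MEFs. tRNA-Glu-CTC-4 had 4 to 12 counts in the hearts and 12 to 26 in the MEFs. The other 5 entries carried nearly all of the signal. After the filter on low counts, 5 members in the hearts and 6 members in the MEFs, where tRNA-Glu-CTC-4 also passed, entered the tests.

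Within the CTC pool, tRNA-Glu-CTC-1 held 99.7% of the counts in the hearts and 99.4% in the MEFs on average. tRNA-Glu-CTC-2 held 0.315% in the hearts and 0.551% in the MEFs. The TTC pool was spread more evenly. tRNA-Glu-TTC-1 held 54.9% ± 1.80 of the TTC counts in the hearts and 52.3% ± 2.10 in the MEFs (SD, n = 8 libraries each, as for the next shares). tRNA-Glu-TTC-2 held 39.6% ± 3.96 in the hearts and 40.7% ± 2.87 in the MEFs. tRNA-Glu-TTC-3, the minor entry, held 5.48% ± 2.47 in the hearts and 6.96% ± 1.38 in the MEFs. These shares overlapped between the tissues for all 3 entries. RefSeq names for the GRCm38.p6 assembly list 12 glutamate tRNA genes with the anticodon CTC and 8 with TTC, all 72 bases long, so counts of both anticodons can be set side by side without a length correction. The submitters' processing notes name mm39, a different build, so no coordinates are given, and the count tables do not say which genes each entry covers.

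**Figure D1:**
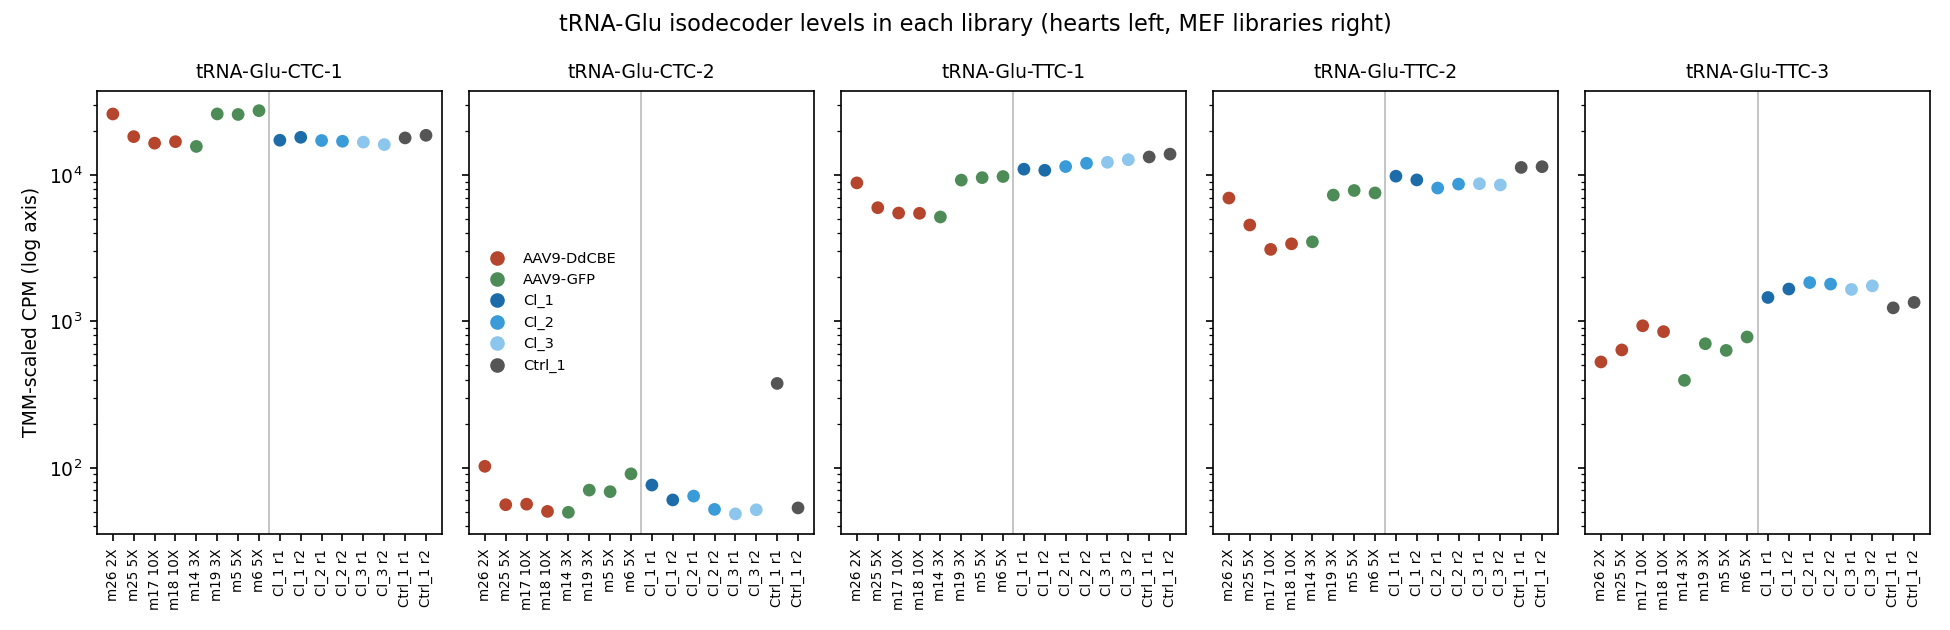
Level of the 5 abundant tRNA-Glu entries in each of the 16 libraries, in TMM-scaled CPM on a log axis. Hearts lie left of the grey line and MEF libraries right of it, and each was scaled within its own table; points are single libraries, coloured by group. The single high point in the tRNA-Glu-CTC-2 panel is Ctrl_1 replicate 1 at 377 CPM, and mouse 14 lies below the other AAV9-GFP hearts in all 5 panels.

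The balance of the anticodons differed between the tissues: hearts held more CTC than TTC counts, and MEFs more TTC than CTC. In the AAV9-DdCBE hearts the TTC to CTC ratio was 0.623 (mouse 26), 0.609 (mouse 25), 0.576 (mouse 17) and 0.573 (mouse 18). In the AAV9-GFP hearts it was 0.576 (mouse 14), 0.658 (mouse 19), 0.696 (mouse 5) and 0.655 (mouse 6). In the MEFs it was 1.28 and 1.19 in Cl_1, 1.24 and 1.32 in Cl_2, 1.34 and 1.42 in Cl_3, and 1.41 and 1.42 in Ctrl_1. Every heart lay below 1 and every MEF library above it. The ratio averaged 0.621 ± 0.045 in the hearts and 1.33 ± 0.086 in the MEFs (SD, n = 8 libraries each), 2.14-fold lower in the hearts (log2 difference -1.10). An exact permutation test over 12870 arrangements of the libraries gave a two-sided p of 1.55e-04, the smallest those arrangements can give, and 4.66e-04 after Benjamini-Hochberg adjustment over the 3 ratio tests. The 8 MEF libraries come from 4 lines; with each line entered as its mean, the exact test gave an adjusted p of 0.00606. The counting error of a library's log2 ratio was at most 0.015, so depth did not limit this comparison. Tissue and table cannot be told apart, because hearts and MEFs were deposited as separate tables.

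The CTC total took the larger share of nuclear counts in the hearts, and the TTC total a similar share in both. tRNA-Glu-CTC made up 3.77% ± 0.577 of the nuclear tRNA counts in the hearts and 1.79% ± 0.055 in the MEFs (SD, n = 8 each), and the tissues did not overlap: 2.75% was the lowest heart and 1.89% the highest MEF library. tRNA-Glu-TTC made up 2.36% ± 0.484 in the hearts and 2.38% ± 0.158 in the MEFs, and its heart values, 1.58% to 2.87%, enclosed those of the MEFs. By mean share, not adjusted for tRNA length, CTC ranked 4 of 57 nuclear anticodons in the hearts and 27 in the MEFs, and TTC ranked 19 in the hearts and 16 in the MEFs. Both together made up 6.13% ± 1.05 of the nuclear counts in the hearts and 4.18% ± 0.180 in the MEFs. In these bulk samples a lower level cannot be told apart into fewer cells of a type and less RNA per cell. No test was made of these shares beyond that of the ratio.

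For comparison, the same ratio was formed for the other amino acids whose U-wobble anticodon is thiolated, lysine and glutamine, as a description without a test. The TTT to CTT ratio of tRNA-Lys averaged 2.38 ± 0.218 in the hearts and 1.85 ± 0.382 in the MEFs, a log2 difference of 0.38, with overlap between the tissues. The TTG to CTG ratio of tRNA-Gln averaged 0.178 ± 0.010 in the hearts and 0.174 ± 0.014 in the MEFs, a log2 difference of 0.03, also with overlap. Of the 3 ratios, that of tRNA-Glu differed between the tissues without overlap.

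**Figure D2:**
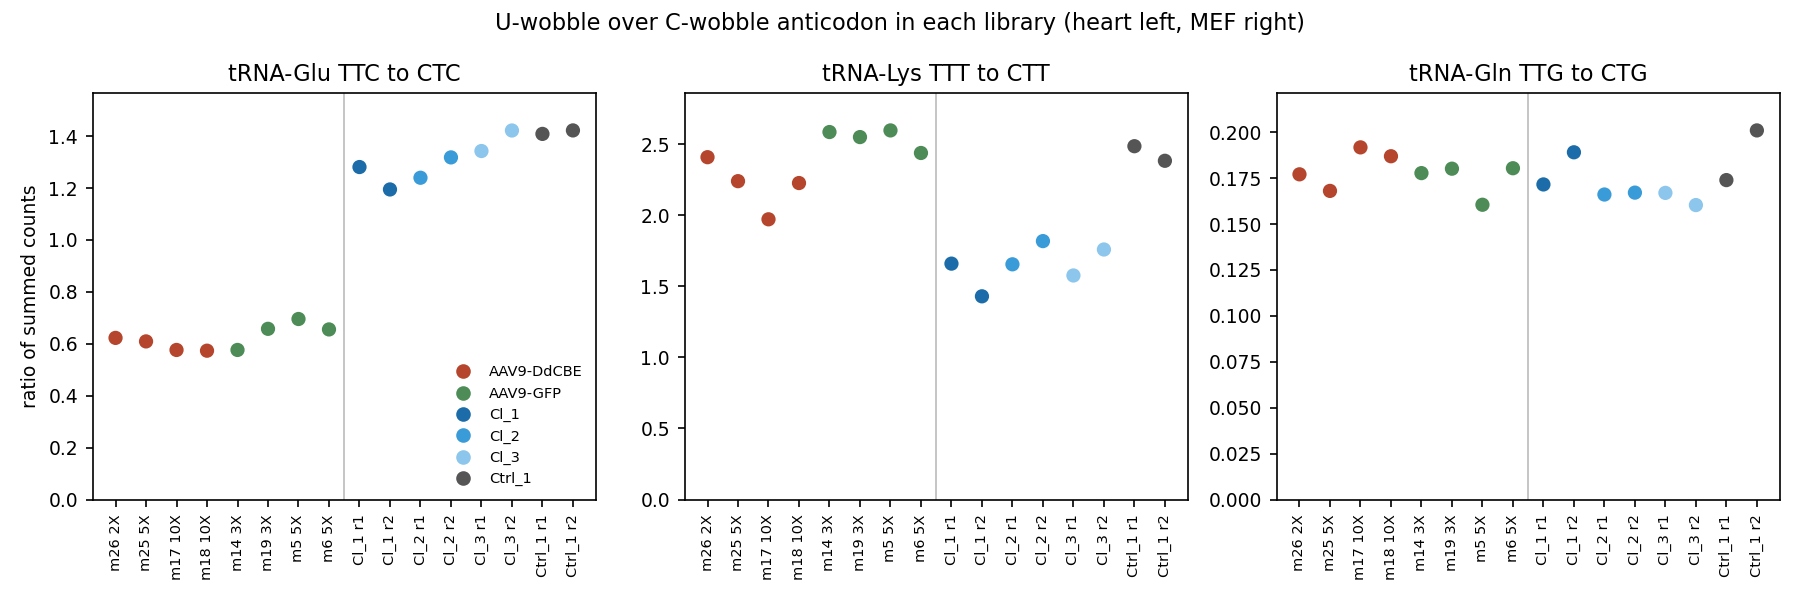
Ratio of summed counts of the U-wobble to the C-wobble anticodon in each library for tRNA-Glu, tRNA-Lys and tRNA-Gln, on linear axes that start at 0. Points are single libraries, hearts left of the grey line and MEFs right of it. The tRNA-Glu ratio runs from 0.573 to 0.696 in the hearts and from 1.19 to 1.42 in the MEFs; the tRNA-Lys and tRNA-Gln ratios overlap between the tissues.

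The first comparison within a tissue set the Cl lines against Ctrl_1. The TTC isodecoders moved in opposite directions: averaged over the Cl lines, tRNA-Glu-TTC-1 and tRNA-Glu-TTC-2 fell and tRNA-Glu-TTC-3 rose, all by less than 1.4-fold. Of the 6 members tested, 4 passed the threshold of 0.05 on the adjusted p of edgeR's quasi-likelihood test, 1 higher and 3 lower. Among all 201 transcripts tested 48.3% passed, 22.9% higher and 25.4% lower, so a call for a single tRNA is common in this comparison. The median log2 change was -0.16 over the 6 members and 0.00 over all transcripts tested.

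tRNA-Glu-TTC-1, the most abundant TTC entry, had 10936 and 10745 CPM in Cl_1, 11390 and 11996 in Cl_2, and 12185 and 12689 in Cl_3, against 13251 and 13852 CPM in Ctrl_1. In these TMM-scaled CPM all 6 Cl libraries lay below both Ctrl_1 libraries. As a share of nuclear counts the groups overlapped, with 1.289% and 1.375% in Cl_3 against 1.286% and 1.380% in Ctrl_1. Averaged over the Cl lines, the log2 change was -0.22 (SE 0.05, edgeR adjusted p = 0.00702). By line it was -0.32 in Cl_1 (adjusted p = 0.00468 in edgeR), -0.21 in Cl_2 (0.0212) and -0.12 in Cl_3 (0.112), so the entry fell in Cl_1 and Cl_2.

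tRNA-Glu-TTC-2, the other abundant entry of this anticodon, showed the larger change. Its level was 9793 and 9233 CPM in Cl_1, 8128 and 8647 in Cl_2, and 8700 and 8530 in Cl_3, against 11238 and 11369 CPM in Ctrl_1. Again the groups did not overlap. The log2 change was -0.36 (SE 0.05, edgeR adjusted p = 0.00105), a level 1.28-fold lower. It fell in each line, by 0.25 in Cl_1 (adjusted p = 0.0165 in edgeR), 0.43 in Cl_2 (0.00169) and 0.39 in Cl_3 (0.00215) on the log2 scale.

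tRNA-Glu-TTC-3 went the other way. It had 1455 and 1662 CPM in Cl_1, 1839 and 1795 in Cl_2, and 1650 and 1746 in Cl_3, against 1235 and 1346 CPM in Ctrl_1. All Cl libraries lay above both Ctrl_1 libraries, and the log2 change was 0.39 (SE 0.09, edgeR adjusted p = 0.00783). By line it was 0.27 in Cl_1 (adjusted p = 0.0840 in edgeR), 0.49 in Cl_2 (0.00788) and 0.40 in Cl_3 (0.0163), so the entry rose in Cl_2 and Cl_3. How many of all transcripts kept the Cl and Ctrl_1 libraries apart, as these TTC entries did, was not counted.

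Leaving out Ctrl_1 replicate 1 ended the call of tRNA-Glu-TTC-3 (log2 change 0.31, edgeR adjusted p = 0.0907), and leaving out Ctrl_1 replicate 2 ended that of tRNA-Glu-TTC-1 (-0.18, adjusted p = 0.0913). The call of tRNA-Glu-TTC-1 was also lost when libraries were scaled by their total counts (-0.12, edgeR adjusted p = 0.107) or by their nuclear counts (-0.13, adjusted p = 0.0787). With the libraries of each line summed, which leaves 3 Cl sums against 1 Ctrl_1 sum, all 3 TTC calls were lost: the log2 change was -0.22 for tRNA-Glu-TTC-1 (edgeR adjusted p = 0.398), -0.35 for tRNA-Glu-TTC-2 (0.231) and 0.38 for tRNA-Glu-TTC-3 (0.470). The 1 member called in that fit was tRNA-Glu-CTC-2, described next, where 4.07% of 221 transcripts passed. For tRNA-Glu-TTC-2 this was the 1 loss in 14 alternatives.

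The CTC entries gave no call that held up to leaving out 1 library. tRNA-Glu-CTC-1, the main entry of the CTC pool, had 16094 to 18046 CPM, with a median of 17057, in the 6 Cl libraries, against 17873 and 18622 CPM in Ctrl_1. The groups overlapped, and the log2 change was -0.10 (SE 0.04, edgeR adjusted p = 0.105). tRNA-Glu-CTC-4 was at 5.60 to 7.89 CPM in the Cl libraries and 8.50 and 5.22 CPM in Ctrl_1 (log2 change -0.01, edgeR adjusted p = 0.989).

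tRNA-Glu-CTC-2 passed the threshold on the strength of 1 library. It had 76.2 and 60.3 CPM in Cl_1, 64.0 and 52.0 in Cl_2, and 48.4 and 51.6 in Cl_3, against 377 and 53.2 CPM in Ctrl_1. The library of Ctrl_1 replicate 1 alone was high, 7.08-fold above replicate 2, the largest difference between those 2 passages among the 201 transcripts tested; the median size over all transcripts was 0.11 on the log2 scale. The log2 change was -1.87 (SE 0.55, edgeR adjusted p = 0.0242). Without Ctrl_1 replicate 1 it was 0.12 (edgeR adjusted p = 0.712). Leaving out Cl_1 replicate 2, Cl_2 replicate 2 or either Cl_3 library also took it over the threshold, with adjusted p-values of 0.0538 to 0.0592.

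Among the 3 Cl lines, edgeR called 0 of the 6 members, where 24.4% of all transcripts passed. At an unadjusted p under 0.05, 2 members passed, tRNA-Glu-TTC-1 (edgeR adjusted p = 0.0967) and tRNA-Glu-TTC-2 (0.116), and 39.8% of all transcripts. DESeq2 called these 2 members and 33.3% of all transcripts. Against Ctrl_1, the members called were 2 in Cl_1, where 33.8% of all transcripts passed, 3 in Cl_2 (46.3%) and 2 in Cl_3 (50.7%). These comparisons share the Ctrl_1 libraries. Calls in a single line often rested on 1 library. In Cl_1, that of tRNA-Glu-TTC-2 was lost without Cl_1 replicate 2 (edgeR adjusted p = 0.138), Ctrl_1 replicate 1 (0.0622) or Ctrl_1 replicate 2 (0.0708). In Cl_2, that of tRNA-Glu-TTC-1 held in 4 of 9 alternatives. It was lost without Cl_2 replicate 1 (edgeR adjusted p = 0.195) or Ctrl_1 replicate 2 (0.164), with total-count scaling (0.233), with nuclear-count scaling (0.183) and with no filter on low counts (0.0697). The call of tRNA-Glu-TTC-3 in Cl_2 was lost without Ctrl_1 replicate 1 (edgeR adjusted p = 0.0600). In Cl_3, that of tRNA-Glu-TTC-3 was lost without Cl_3 replicate 2 (edgeR adjusted p = 0.0818) or Ctrl_1 replicate 1 (0.108). The calls of tRNA-Glu-TTC-1 in Cl_1, and of tRNA-Glu-TTC-2 in Cl_2 and Cl_3, held in all 9 alternatives run for each.

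The make-up of the TTC pool differed between the Cl lines and Ctrl_1. tRNA-Glu-TTC-3 made up 6.56% and 7.68% of the TTC counts in Cl_1, 8.61% and 8.0% in Cl_2, and 7.32% and 7.60% in Cl_3, against 4.80% and 5.07% in Ctrl_1. That is 7.63% ± 0.685 in the Cl lines (SD, n = 6 libraries) and 4.93% ± 0.187 in Ctrl_1 (n = 2), without overlap. The share of tRNA-Glu-TTC-2 split the Cl lines: 44.1% and 42.7% in Cl_1, 38.1% and 38.5% in Cl_2, and 38.6% and 37.1% in Cl_3, against 43.7% and 42.8% in Ctrl_1. Cl_1 lay at the level of Ctrl_1, and Cl_2 and Cl_3 below it. The widest 95% Wilson interval of these shares spanned 0.736 percentage points for tRNA-Glu-TTC-3 and 1.61 for tRNA-Glu-TTC-2 over all 16 libraries; such intervals cover counting error only, since reads are not independent molecules. These shares do not depend on how libraries are scaled, but they do depend on how reads that match several isodecoders were assigned, which the sources used here do not state.

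**Figure D3:**
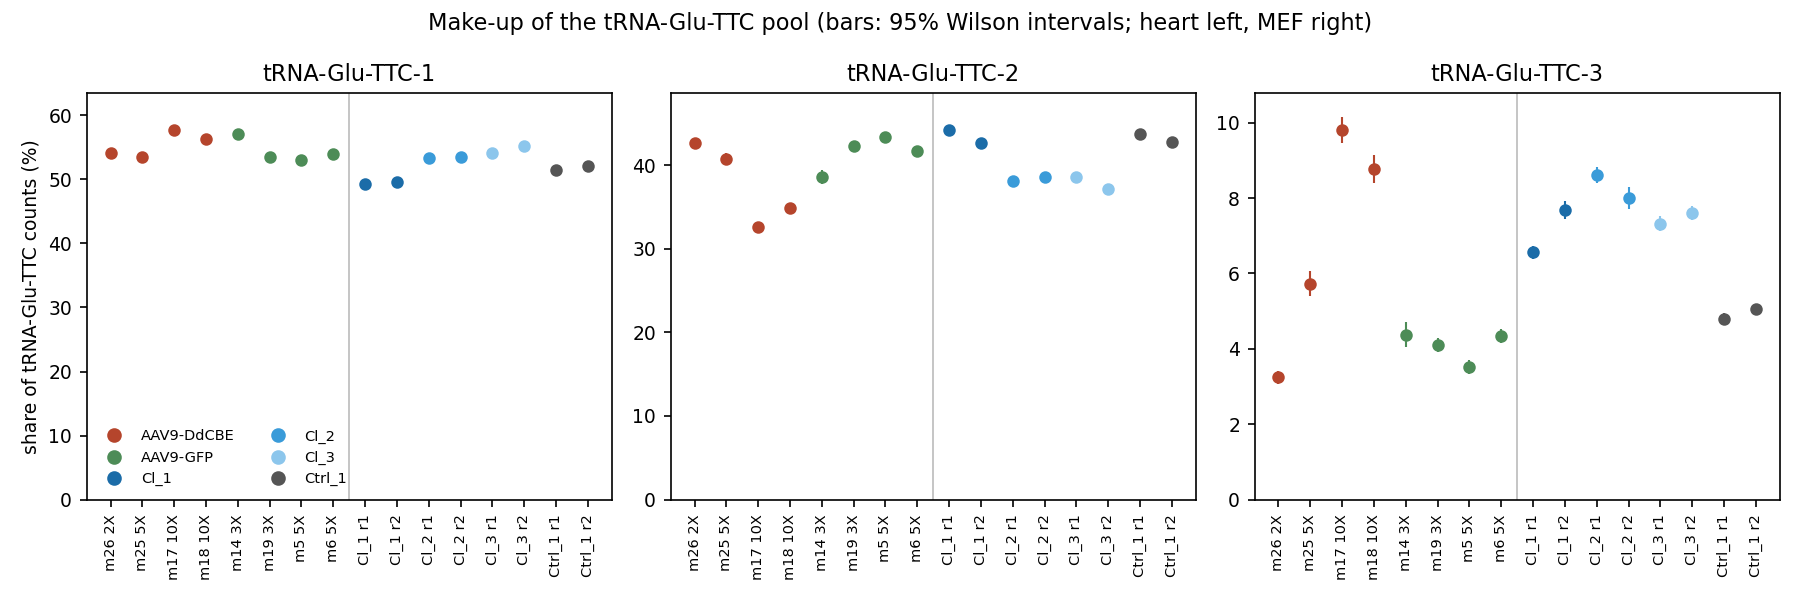
Share of the tRNA-Glu-TTC counts held by each of the 3 TTC isodecoders, in percent, per library; each panel has its own linear axis from 0. Points are single libraries with 95% Wilson intervals, hearts left of the grey line and MEFs right of it. The tRNA-Glu-TTC-3 share is 6.56% to 8.61% in the Cl libraries and 4.80% to 5.07% in Ctrl_1, and 9.79% and 8.77% in the 10X hearts against 3.51% to 4.37% in the AAV9-GFP hearts.

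Summed per anticodon, edgeR called neither total for the average of the Cl lines, where 42.9% of the 70 anticodon totals passed; at an unadjusted p under 0.05, the TTC total passed, as did 58.6% of all totals, and DESeq2 called neither, against 51.4% of all totals. tRNA-Glu-TTC averaged 22721 ± 1198 CPM in the Cl lines (SD, n = 6) and 24406 ± 637 CPM in Ctrl_1 (n = 2), with a log2 change of -0.10 (SE 0.04, and an adjusted p of 0.0812 in edgeR). Scaled by total counts the TTC total was called (log2 change -0.14, edgeR adjusted p = 0.0433), as it was scaled by nuclear counts (-0.15, adjusted p = 0.0343). It was also called without Cl_1 replicate 1 (-0.15, adjusted p = 0.0340) and without Cl_2 replicate 2 (-0.15, adjusted p = 0.05). The share of all totals called in these alternative fits was not counted, so these calls cannot be set against it. tRNA-Glu-CTC averaged 17492 ± 295 CPM in the Cl lines and 17242 ± 334 CPM in Ctrl_1 (log2 change 0.02, edgeR adjusted p = 0.673). The totals had TMM factors of their own, so their changes are not on the scale of the single entries. As a single entry tRNA-Glu-CTC-1, which held 99.4% of the CTC counts in the MEFs, was at -0.10. The TTC to CTC ratio was 1.30 ± 0.080 in the Cl lines and 1.42 ± 0.009 in Ctrl_1. The log2 difference of -0.13 did not pass an exact permutation test (two-sided p = 0.143, also 0.143 after adjustment; 28 arrangements allow no p below 0.0357), and the second passage of Cl_3 reached the values of Ctrl_1. Among the Cl lines edgeR called neither anticodon total, against 1.43% of all totals; at an unadjusted p under 0.05 neither passed, against 15.7% of all totals, and DESeq2 called neither, against 5.71%.

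The lysine and glutamine entries with the same type of wobble base were set beside these values. Of 8 tested transcripts of tRNA-Lys-TTT and tRNA-Gln-TTG, averaged over the Cl lines, edgeR called 2 higher and 3 lower. Their median log2 change was -0.20. Of 11 transcripts of tRNA-Lys-CTT and tRNA-Gln-CTG, it called 1 higher and 1 lower, with a median of -0.04. Among all 201 transcripts tested, 22.9% were called higher and 25.4% lower. As a total, tRNA-Lys-TTT fell (log2 change -0.46, SE 0.10, edgeR adjusted p = 0.00901), and tRNA-Gln-TTG was at -0.03 (adjusted p = 0.674), where 42.9% of the 70 totals passed. The TTT to CTT ratio of tRNA-Lys averaged 1.65 in the Cl lines and 2.43 in Ctrl_1, without overlap and without a test. The mitochondrial tRNA-Glu had 934 to 1737 CPM in the Cl libraries and 602 and 1168 CPM in Ctrl_1, and its log2 change of 0.60 did not pass (SE 0.27, edgeR adjusted p = 0.105).

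In the hearts, the comparison of AAV9-DdCBE with AAV9-GFP gave no call for a tRNA-Glu member: edgeR called 0 of the 5 tested and 0.0% of all 180 transcripts. At an unadjusted p under 0.05, 0 members and 35 transcripts (19.4%) passed, and DESeq2 called 0 members and 27 transcripts (15%). The hearts of each group were spread widely. tRNA-Glu-CTC-1 averaged 19398 ± 4496 CPM in AAV9-DdCBE hearts and 23743 ± 5451 CPM in AAV9-GFP hearts (SD, n = 4 each), with a log2 change of -0.29 (SE 0.23; the edgeR adjusted p was 0.380). tRNA-Glu-CTC-2 averaged 66.2 ± 24.2 and 69.9 ± 16.9 CPM in AAV9-DdCBE and AAV9-GFP hearts (log2 change -0.08, edgeR adjusted p = 0.869).

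In TMM-scaled CPM of the AAV9-DdCBE hearts, tRNA-Glu-CTC-1, tRNA-Glu-TTC-1 and tRNA-Glu-TTC-2 fell from 2X over 5X to 10X, and tRNA-Glu-TTC-3 rose. tRNA-Glu-CTC-1 had 26043 CPM in mouse 26 (2X), 18240 in mouse 25 (5X), and 16455 and 16853 in mice 17 and 18 (10X). tRNA-Glu-TTC-1 had 8812 CPM in mouse 26 (2X), 5966 in mouse 25 (5X), and 5487 and 5464 in mice 17 and 18 (10X), against 5157, 9208, 9570 and 9739 CPM in mice 14, 19, 5 and 6 of AAV9-GFP. The log2 change over all hearts was -0.39 (SE 0.23, edgeR adjusted p = 0.323). tRNA-Glu-TTC-2 had 6944 CPM in mouse 26, 4545 in mouse 25, and 3097 and 3381 in mice 17 and 18, against 3488, 7278, 7820 and 7524 CPM in mice 14, 19, 5 and 6. Its log2 change was -0.54 (SE 0.31, edgeR adjusted p = 0.323). In these CPM tRNA-Glu-TTC-1 and tRNA-Glu-TTC-2 were lowest in the 10X hearts and in mouse 14. As a share of nuclear counts the same held for tRNA-Glu-TTC-2 and not for tRNA-Glu-TTC-1, which was at 1.42% in mouse 26, 1.04% in mouse 25, and 1.29% and 1.11% in mice 17 and 18, against 0.904% to 1.55% in the AAV9-GFP hearts. On that scale the 5X heart lay below both 10X hearts for tRNA-Glu-TTC-1 and for tRNA-Glu-CTC-1.

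tRNA-Glu-TTC-3 had 528 CPM in mouse 26, 637 in mouse 25, and 932 and 850 in mice 17 and 18, against 395, 703, 633 and 781 CPM in mice 14, 19, 5 and 6. Here the 10X hearts were the highest of all 8, and the log2 change over all hearts was 0.23 (SE 0.29, edgeR adjusted p = 0.604). With 1 or 2 hearts per X label, and the labels unexplained, the order along the labels is a description.

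Setting the 10X hearts alone against AAV9-GFP, edgeR called 1 of the 5 members, tRNA-Glu-TTC-2, where 51.7% of the 180 transcripts passed, 23.9% higher and 27.8% lower. tRNA-Glu-TTC-2 averaged 3239 ± 201 CPM in the 10X hearts (SD, n = 2) and 6528 ± 2038 CPM in AAV9-GFP hearts (n = 4), and the groups did not overlap, with 3381 CPM the highest 10X heart and 3488 CPM the lowest AAV9-GFP heart. Its log2 change was -1.01 (SE 0.31, edgeR adjusted p = 0.0259). The median over all transcripts tested was -0.23 in this comparison, and 0.21 when libraries were scaled by their nuclear counts, so part of a fall depends on the scaling. On nuclear counts tRNA-Glu-TTC-2 was at -0.57 (edgeR adjusted p = 0.172) and tRNA-Glu-TTC-3 was called instead, at 0.95 (adjusted p = 0.0261), where 36.7% of all transcripts passed. Under the standard scaling tRNA-Glu-TTC-3 was at 0.50 (SE 0.26, edgeR adjusted p = 0.130), tRNA-Glu-TTC-1 at -0.62 (0.0687), tRNA-Glu-CTC-1 at -0.51 (0.108) and tRNA-Glu-CTC-2 at -0.39 (0.254).

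The call of tRNA-Glu-TTC-2 in the 10X hearts was lost without mouse 17 (edgeR adjusted p = 0.193), mouse 18 (0.115), mouse 5 (0.121) or mouse 6 (0.0990). It was also lost with a filter on low counts by the 4 label groups, chosen after seeing the data (log2 change -0.82, edgeR adjusted p = 0.0668), where the median over all transcripts tested was -0.04. Without mouse 14, 3 of 5 members were called, tRNA-Glu-CTC-1 (log2 change -0.67), tRNA-Glu-TTC-1 (-0.80) and tRNA-Glu-TTC-2 (-1.22), where 66.5% of all transcripts passed. Mitochondrial tRNAs took 59.9% and 44.5% of the counts in the 10X hearts and 37.4% to 43.3% in the AAV9-GFP hearts, and their part in these changes was not tested.

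Against the 5X and 2X hearts, the 10X hearts gave 0 calls among the 5 members, where 31.1% of all transcripts passed; at an unadjusted p under 0.05, 1 member passed, tRNA-Glu-TTC-2 (log2 change -0.79, edgeR adjusted p = 0.101), as did 47.8% of all transcripts. DESeq2 called 1 member, tRNA-Glu-TTC-3, and 32.8% of all transcripts. In edgeR, the log2 change of tRNA-Glu-TTC-3 was 0.62 (SE 0.31, adjusted p = 0.140). In CPM the sets of 2 hearts did not overlap for tRNA-Glu-CTC-1, tRNA-Glu-TTC-1, tRNA-Glu-TTC-2 and tRNA-Glu-TTC-3, and overlapped for tRNA-Glu-CTC-2. How many of all transcripts were apart in this way was not counted, so nothing about the members is read from it.

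Within the TTC pool, which no scaling affects, tRNA-Glu-TTC-3 made up 3.24% of the counts in mouse 26, 5.72% in mouse 25, and 9.79% and 8.77% in mice 17 and 18, against 4.37%, 4.09%, 3.51% and 4.33% in mice 14, 19, 5 and 6. The share averaged 6.88% ± 2.98 in AAV9-DdCBE hearts and 4.08% ± 0.396 in AAV9-GFP hearts (SD, n = 4 each). Mouse 14, low in the level of the entry, was not low in this share. tRNA-Glu-TTC-2 made up 42.6% in mouse 26, 40.8% in mouse 25, and 32.5% and 34.9% in mice 17 and 18, against 38.6%, 42.3%, 43.4% and 41.7% in mice 14, 19, 5 and 6. The 10X hearts lay above all other hearts in the first share and below them in the second. No test was made of these shares.

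**Figure D4:**
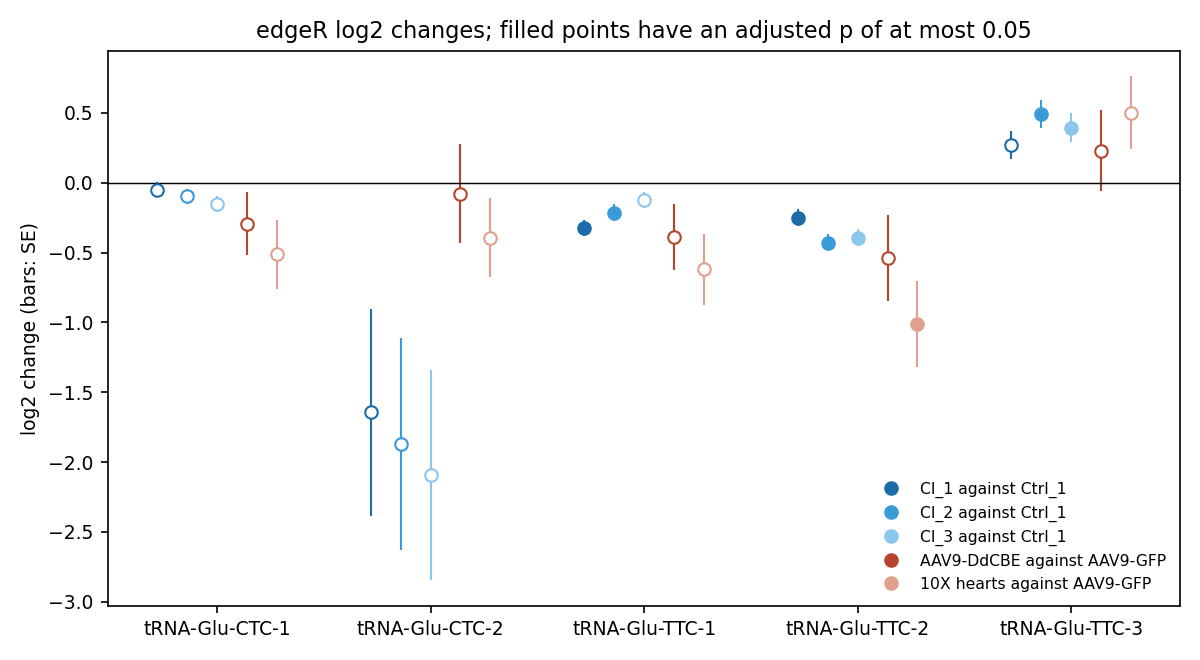
Log2 change of the 5 abundant tRNA-Glu entries in edgeR, for each Cl line against Ctrl_1, for AAV9-DdCBE against AAV9-GFP and for the 10X hearts against AAV9-GFP; bars are standard errors and filled points passed the adjusted threshold of 0.05. tRNA-Glu-TTC-3 lies above 0 in all 5 comparisons, and tRNA-Glu-CTC-1, tRNA-Glu-CTC-2, tRNA-Glu-TTC-1 and tRNA-Glu-TTC-2 lie below 0. Comparisons within a tissue share their control libraries. For tRNA-Glu-CTC-2 in the Cl lines these include Ctrl_1 replicate 1, at 377 CPM against 53.2 CPM in replicate 2. Averaged over the Cl lines, the log2 change of tRNA-Glu-CTC-2 was 0.12 without that library.

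The anticodon totals of the hearts gave no call. tRNA-Glu-TTC averaged 12351 ± 2137 CPM in AAV9-DdCBE hearts and 14405 ± 3751 CPM in AAV9-GFP hearts (log2 change -0.22, SE 0.22, edgeR adjusted p = 0.934). tRNA-Glu-CTC averaged 20702 ± 3044 CPM in AAV9-DdCBE hearts and 22052 ± 4536 CPM in AAV9-GFP hearts (log2 change -0.09, SE 0.18, edgeR adjusted p = 0.934). Of the 70 anticodon totals 0.0% passed, and likewise 0.0% in the 10X hearts against AAV9-GFP, where the TTC total was at -0.32 and the CTC total at -0.13. These totals had TMM factors of their own and are not on the scale of the single entries. As a single entry tRNA-Glu-CTC-1, which held 99.7% of the CTC counts in the hearts, was at -0.51 in the 10X hearts. At an unadjusted p under 0.05, 0 of the tRNA-Glu totals passed in either comparison, against 4.29% of all totals in the AAV9-DdCBE hearts and 21.4% in the 10X hearts. DESeq2 called 0 of them, against 2.86% of all totals in the AAV9-DdCBE hearts and 18.6% in the 10X hearts.

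The TTC to CTC ratio averaged 0.595 ± 0.024 in AAV9-DdCBE hearts and 0.646 ± 0.050 in AAV9-GFP hearts (SD, n = 4 each). The log2 difference was -0.12, and the exact permutation test over 70 arrangements gave a two-sided p of 0.143, which stayed 0.143 after adjustment; the smallest p possible was 0.0286. Mouse 14, at 0.576, was the only AAV9-GFP heart within the range of the AAV9-DdCBE hearts. Without it the groups no longer overlapped, at a log2 difference of -0.17. Leaving out the only overlapping heart fixed the exact permutation test of the other 7 hearts at its smallest possible p (adjusted p = 0.0429). No conclusion is drawn from that p. The same ratio of tRNA-Lys, TTT to CTT, averaged 2.21 ± 0.180 in AAV9-DdCBE hearts and 2.54 ± 0.072 in AAV9-GFP hearts, without overlap and without a test.

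Across libraries the 2 tRNA-Glu anticodon totals varied together in the hearts and not in the MEFs. Over the 8 hearts their log2 CPM had a Pearson correlation of 0.98, the highest of either total with any of the 47 other nuclear anticodons past the filter. The next highest were tRNA-Leu-CAA (0.95 with TTC and 0.97 with CTC) and tRNA-Val-CAC (0.93 and 0.96). Over the 8 MEF libraries the correlation of the 2 totals was -0.42. There, tRNA-Glu-TTC followed tRNA-Leu-TAA (0.96), tRNA-Val-TAC (0.90) and tRNA-Lys-TTT (0.83) most closely. tRNA-Glu-CTC had its highest values with tRNA-Arg-TCT (0.60), tRNA-Asp-GTC (0.59) and tRNA-Ser-AGA (0.57), on levels that spanned a narrow range of 17006 to 17816 CPM. These correlations describe 8 libraries each, which share their table's scaling, groups and, in the hearts, the low level of mouse 14.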

How the data were processed

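Per the labels' protocols, libraries were made by mim-tRNAseq and run on a NextSeq 500. The authors deposited raw read counts per tRNA transcript, as whole numbers, in 1 table for hearts and 1 for MEFs. Per the submitters' processing notes, reads were trimmed with cutadapt 3.5 and the build was mm39; how reads were aligned, counted and divided among isodecoders is not given in the sources used here. Columns were matched to samples by title.

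Each table had its own fit in edgeR 4.0.16 under R 4.3.3 (TMM scaling, filterByExpr with a minimum count of 10 and minimum total of 15, quasi-likelihood test, Benjamini-Hochberg over all 201 MEF or 180 heart transcripts, or 70 anticodon totals). DESeq2 1.42.0, total-count and nuclear-count scaling, no filter, lines summed and each library left out were alternatives. CPM values are TMM-scaled, with separate TMM factors for transcripts and for anticodon totals. The split by X label, filtered by treatment, followed earlier results of these data. log2 TTC to CTC ratios were compared by exact permutation tests over libraries. The standard error of a log2 change is its size over the square root of F.

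All members of the name rule are described, with mitochondrial tRNA-Glu, the lysine and glutamine anticodon totals, and the 3 nuclear anticodons most correlated with each total. Members and lists were chosen with earlier results of these data known. MEF replicates are passages, so their p-values measure the spread between passages. No pair of replicates was a copy: chi-square divided by its degrees of freedom was 68.1 to 1437. The tests were checked on simulated data.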

Additional observations from a re-analysis of the deposited data

Results flagged for a closer look

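Mouse 14 lay further from the other 3 AAV9-GFP hearts than Dixon's 95% limit allows in 6 measures. Its level was 15312 CPM for the tRNA-Glu-CTC total (others 23718 to 25157) and 8824 CPM for the tRNA-Glu-TTC total (others 15599 to 16708). It was 15635 CPM for tRNA-Glu-CTC-1 (others 25840 to 27436), 5157 CPM for tRNA-Glu-TTC-1 (others 9208 to 9739) and 3488 CPM for tRNA-Glu-TTC-2 (others 7278 to 7820). tRNA-Glu made up 4.33% of its nuclear counts and 6.88% to 7.24% of those of the others. These 6 measures overlap in the reads they count. Mouse 26, the 2X heart, stood above the other 3 AAV9-DdCBE hearts for tRNA-Glu-CTC-2, at 102.3 CPM (others 50.3 to 56.4), and for tRNA-Glu-TTC-1, at 8812 CPM (others 5464 to 5966). Chance alone flags about 1 in 20 such groups, and 32 groups were checked.

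The tRX-Glu rows were not members and entered only an alternative of the TTC to CTC ratio. Per total count, each AAV9-DdCBE heart was above all AAV9-GFP hearts. Their summed level was 4.57 CPM in mouse 26, 4.25 in mouse 25, 9.88 in mouse 17 and 13.5 in mouse 18, against 1.78 to 4.05 CPM in the AAV9-GFP hearts, without TMM scaling. Most of these counts were tRX-Glu-TTC-4, with 9, 6, 28 and 27 counts in mice 26, 25, 17 and 18, against 4, 9, 2 and 3 counts in mice 14, 19, 5 and 6. Scaled to 1e+06 nuclear counts, the order did not hold for mouse 25, at 6.99 from 7 counts of all tRX-Glu rows, which lay below mouse 19, at 7.13 from 11 counts.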

How the results depend on the processing

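Of 480 alternatives for single members and totals, 392 kept direction and side of the threshold, 37 stayed uncalled with the opposite sign, 28 lost the call, 22 gained one and 1 changed the sign of a called value: tRNA-Glu-CTC-2, averaged over the Cl lines, ranged from -2.68 to 0.12 with a library left out, with 0.12 without Ctrl_1 replicate 1. Members called in the mean of the Cl lines were 1, tRNA-Glu-CTC-2, with each line's libraries summed, where 4 summed libraries enter the fit and all 3 TTC calls were lost, and with a library left out from 2 to 4. By line, leave-one-out gave 1 to 3 in Cl_1 and 1 to 3 in Cl_3, where DESeq2 called 4, and 106 of all 201 transcripts. DESeq2 called 2 members among the Cl lines, where it called 67 of all 201 transcripts. It called 2 in the 10X hearts against AAV9-GFP (75 of all 180 transcripts) and 1 in the 10X hearts against 5X and 2X (59 of 180). With no filter the members called in the 2 comparisons of 10X hearts were also 2 and 1. A filter by the 4 label groups, chosen after seeing the data, gave 0 in the 10X hearts against AAV9-GFP, and leave-one-out 0 to 3. The share of all transcripts called was not counted for no filter, the replicate block or leave-one-out, except without mouse 14. Those counts of members are a description. Of the 2 tRNA-Glu anticodon totals, TTC alone was called in the mean of the Cl lines with total-count and with nuclear-count scaling. Leave-one-out gave 0 to 1 of these totals. The share of all totals called there was not counted. The ratio difference of AAV9-DdCBE and AAV9-GFP ranged from -0.17 to -0.079 with a heart left out. It passed at -0.17 without mouse 14, an outcome fixed by leaving out the only AAV9-GFP heart that overlapped. The cause of these changes was not tested, apart from the summed libraries.

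Replicate numbers of the MEF lines showed no clear pairing: deviations of same-numbered passages correlated at 0.070 to 0.25 over 6 pairs of lines. With the replicate block the mean of the Cl lines still gave 4 calls and Cl_3 gave 3 against 2 without it, and the ratio difference of -0.13 had an exact permutation p of 0.188. Depth limits the rare entries tRNA-Glu-CTC-3 to tRNA-Glu-CTC-6, and 2 libraries per line limit each line's values.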
